A study of Mus musculus with 8 samples.

Results

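Collagen crosslinking and hydroxylating enzymes were followed in bulk RNA sequencing of mouse liver. They were defined by name as the 5 lysyl oxidases Lox, Loxl1, Loxl2, Loxl3 and Loxl4, the 3 lysyl hydroxylases Plod1, Plod2 and Plod3, and the prolyl 4-hydroxylase subunits P4ha1 and P4ha2. All 10 symbols were found among the 52110 gene rows with a name. The study comprised 8 liver libraries of wild-type (WT) mice. All mice were fed CDAHFD, a high-fat diet without choline and with defined amino acids, under which mice develop fatty, inflamed and scarred livers (NASH, nonalcoholic steatohepatitis). In the group RIC_hEV (4 libraries) mice received intravenous extracellular vesicles from the blood of human volunteers after remote limb ischemic conditioning (RIC). In the group ctr_hEV (4 libraries) the vesicles came from volunteers after a sham procedure. The labels give no age, sex, dose, time or batch and do not say whether each library is its own mouse, so p-values measure the spread between these libraries.

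Collagen chains are modified inside the cell before they fold. Prolyl 4-hydroxylases stabilise the triple helix, and lysyl hydroxylases prepare the lysines that later carry crosslinks. Both kinds of enzyme need iron, oxoglutarate and ascorbate. Lysyl oxidases are copper enzymes that act outside the cell and oxidise lysines in collagen and elastin, so that neighbouring molecules become joined. In scarred liver the crosslinked fibres are stiffer and resist degradation, and hepatic stellate cells and fibroblasts are their main known source.

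Levels are given in FPKM, fragments scaled to transcript length and to the mapped fragments of the library. The tests compared log2(FPKM + 1) between groups in limma for the 11274 genes with a mean of at least 1 FPKM, with Benjamini-Hochberg adjustment over all of them. The depth was estimated at 19300000 to 28800000 fragments per library. The libraries ctr_hEV 1 and ctr_hEV 3 stood apart: on the first principal component (44.4% of the variance) they lay at 36.1 and 23.3, whereas ctr_hEV 2 and ctr_hEV 4 lay at 2.36 and -16.3 and the RIC_hEV libraries between -16.3 and -4.75. Over all tested genes, the median log2 fold change, RIC_hEV over ctr_hEV, stood at -0.11 with all libraries and at -0.03 without ctr_hEV 1 and ctr_hEV 3. Fold changes of the tested enzymes are therefore also given relative to that median.

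None of the 10 enzymes differed between the groups beyond the spread between libraries. Of the 8 that reached the level filter, 0 were called at an adjusted p under 0.05 in limma, against 0.0355% of all tested genes (0.0177% higher and 0.0177% lower), and the adjusted p-values ran from 0.468 to 0.972. At an unadjusted p under 0.05 there were also 0 of the 8, against 14% of all tested genes. Without ctr_hEV 1 and ctr_hEV 3 the count was again 0, against 0.071% of all tested genes. Individual values overlapped between the groups in 10 of 10 enzymes, and 5.87% of all tested genes had groups that did not overlap. Lox and Plod2 reached the filter only through their ctr_hEV levels, and Loxl3 and Loxl4 lay below it.

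**Figure D1:**
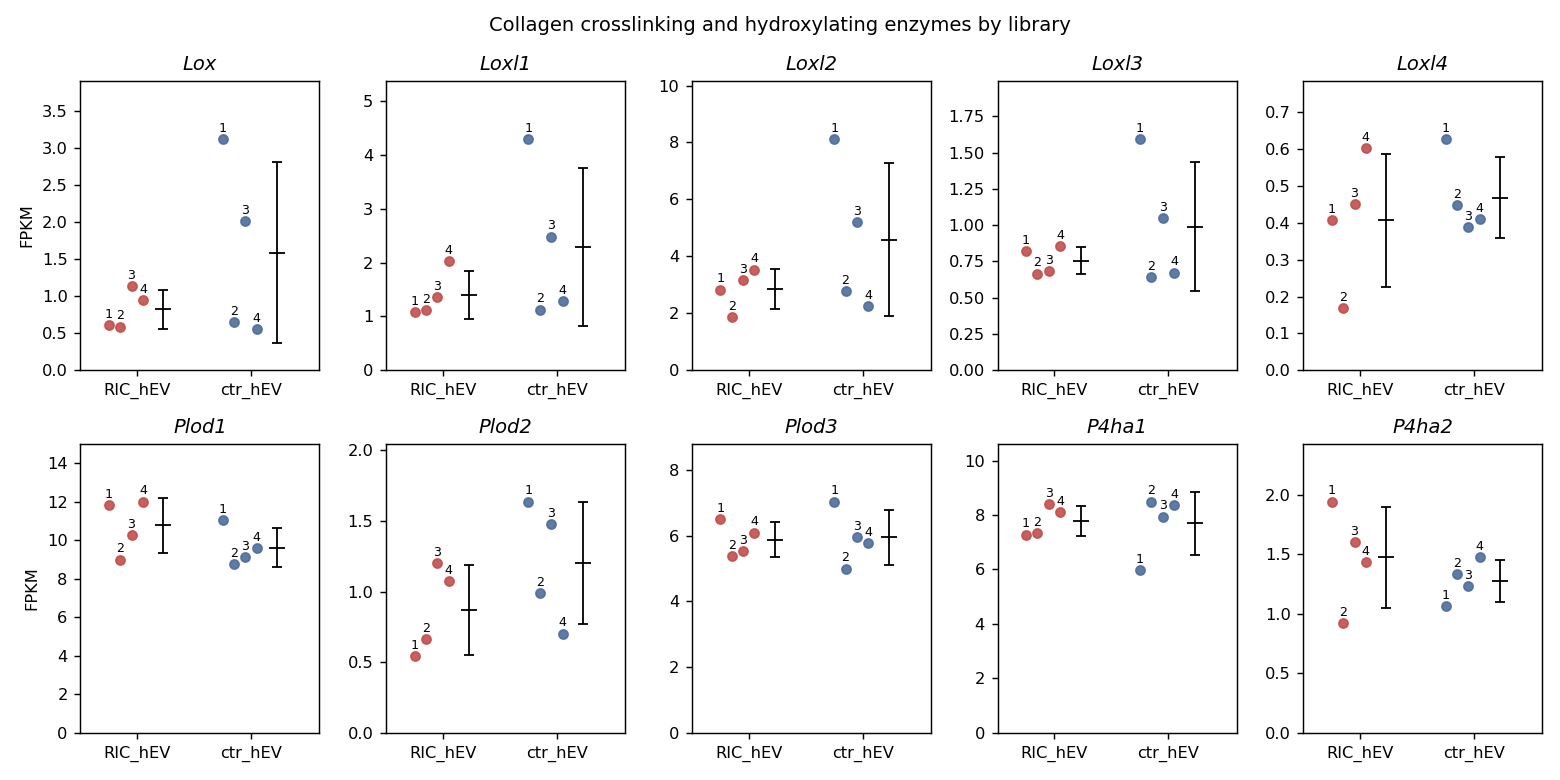
FPKM of each enzyme (vertical axes, each from 0) in the RIC_hEV and ctr_hEV libraries, with points numbered by library and bars giving the mean ± SD (n = 4 each). In Lox, Loxl1, Loxl2, Loxl3 and Plod2 the points of ctr_hEV 1 and ctr_hEV 3 lie above all others, and in every panel the groups overlap.

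Plod1, P4ha1 and Plod3 were the most abundant of the enzymes, and the first 4 ranks were the same in both groups. Over all 8 libraries Plod1 averaged 10.2 ± 1.29 FPKM, P4ha1 7.74 ± 0.846 and Plod3 5.91 ± 0.648 (SD, n = 8). Loxl2 was the most abundant lysyl oxidase at 3.72 ± 2.04 FPKM, and Loxl4 was the lowest enzyme at 0.438 ± 0.142 FPKM. Plod1 lay above P4ha1 in 8 of 8 libraries, P4ha1 above Plod3 and Plod3 above Loxl2 in 7 of 8, and Loxl2 above Loxl1 in 8 of 8. In the middle of the order the neighbours did not separate. Loxl1 (1.85 ± 1.11 FPKM) lay above P4ha2 (1.38 ± 0.319 FPKM) in 4 of 8 libraries, and Lox (1.20 ± 0.915 FPKM) lay above Plod2 (1.04 ± 0.393 FPKM) in 3 of 8.

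Lox, the founding member of the lysyl oxidases (mm10 chromosome 18, 52516067 to 52529867, minus strand), was at 0.611, 0.590, 1.13 and 0.948 FPKM in RIC_hEV 1 to 4, against 3.12, 0.645, 2.01 and 0.559 FPKM in ctr_hEV 1 to 4. The highest values were those of ctr_hEV 1 and ctr_hEV 3, while ctr_hEV 2 and ctr_hEV 4 lay within or below the RIC_hEV range. Its mean was 0.820 ± 0.264 FPKM in RIC_hEV and 1.58 ± 1.22 FPKM in ctr_hEV (SD, n = 4 each). The log2 fold change was -0.40 (SE 0.28, limma adjusted p = 0.488), with a 95% interval from -1.02 to 0.23, and -0.29 relative to the median gene. Without ctr_hEV 1 and ctr_hEV 3, and over the same genes, it was 0.17.

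Loxl1, which crosslinks elastic fibres as well as collagen (chromosome 9, 58287738 to 58313186, minus strand), was at 1.08, 1.12, 1.36 and 2.04 FPKM in RIC_hEV 1 to 4, against 4.30, 1.13, 2.49 and 1.28 FPKM in ctr_hEV 1 to 4. The same pair of control libraries was highest, and the other two controls lay inside the RIC_hEV range. Its log2 fold change was -0.38 (SE 0.26, limma adjusted p = 0.482), -0.27 relative to the median gene, and 0.11 without that pair.

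Loxl2, an oxidase of collagen IV and of fibrillar collagens (chromosome 14, 69609068 to 69695834, plus strand), measured 2.83, 1.88, 3.16 and 3.53 FPKM in RIC_hEV 1 to 4, against 8.13, 2.77, 5.21 and 2.25 FPKM in ctr_hEV 1 to 4. Its log2 fold change was the lowest of the tested enzymes at -0.43 (SE 0.29, limma adjusted p = 0.468), with a 95% interval from -1.08 to 0.21. Relative to the median gene it was -0.32. Without ctr_hEV 1 and ctr_hEV 3 it was 0.12.

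The level of Loxl2 is uncertain because the mouse reference holds a second copy of much of the gene. Gm21451, annotated as an unprocessed pseudogene, lies on the same strand of chromosome 14 at 69390854 to 69480287, 128780 bases before Loxl2. It was singled out after its values were seen. Its first 2348 bases are the same, base for base, as bases 62 to 2409 of the longest Loxl2 transcript, which is 5316 bases long. The shared run holds 2139 of the 2328 coding bases of Loxl2. The 3′ ends differ. The end of the shared run is shown because it is where reads of the genes become distinguishable, with the bases that follow the run in capitals (mm10, chromosome 14, plus strand, GENCODE M21 transcripts).
Loxl2: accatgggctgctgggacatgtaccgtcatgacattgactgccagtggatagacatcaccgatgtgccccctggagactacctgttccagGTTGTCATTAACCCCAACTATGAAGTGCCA
Gm21451: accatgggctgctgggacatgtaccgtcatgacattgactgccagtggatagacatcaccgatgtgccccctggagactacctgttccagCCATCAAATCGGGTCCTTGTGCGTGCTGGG

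The copy was the one feature of the Loxl2 locus with a called difference. Gm21451 was listed at 0 in RIC_hEV 1, 2, 3 and 4, against 4.09, 1.52, 3.07 and 1.39 FPKM in ctr_hEV 1 to 4 (limma adjusted p = 0.0262). It reached the level filter only through its ctr_hEV levels. It was also singled out after these values were seen, so the adjusted p adds no support of its own. In the ctr_hEV libraries Gm21451 amounted to 50.4%, 54.9%, 58.8% and 62.0% of the Loxl2 FPKM. When both were added, weighted by exonic length, Loxl2 with its copy was at 2.83, 1.88, 3.16 and 3.53 FPKM in RIC_hEV 1 to 4, against 10.2, 3.55, 6.78 and 2.96 FPKM in ctr_hEV 1 to 4. The groups still overlapped. The log2 fold change of the sum was -0.73 (SE 0.30, limma adjusted p = 0.354), and -0.16 without ctr_hEV 1 and ctr_hEV 3. As a plain sum of FPKM the log2 fold change was -0.96 (limma adjusted p = 0.331), and the groups no longer overlapped (1.88 to 3.53 in RIC_hEV, against 3.64 to 12.2 in ctr_hEV). The sources used here do not say how the authors' counting assigned fragments that match both genes, and its part in these values was not tested. The labels give no strain, and whether strain or annotation differed between the groups was not tested either.

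**Figure D2:**
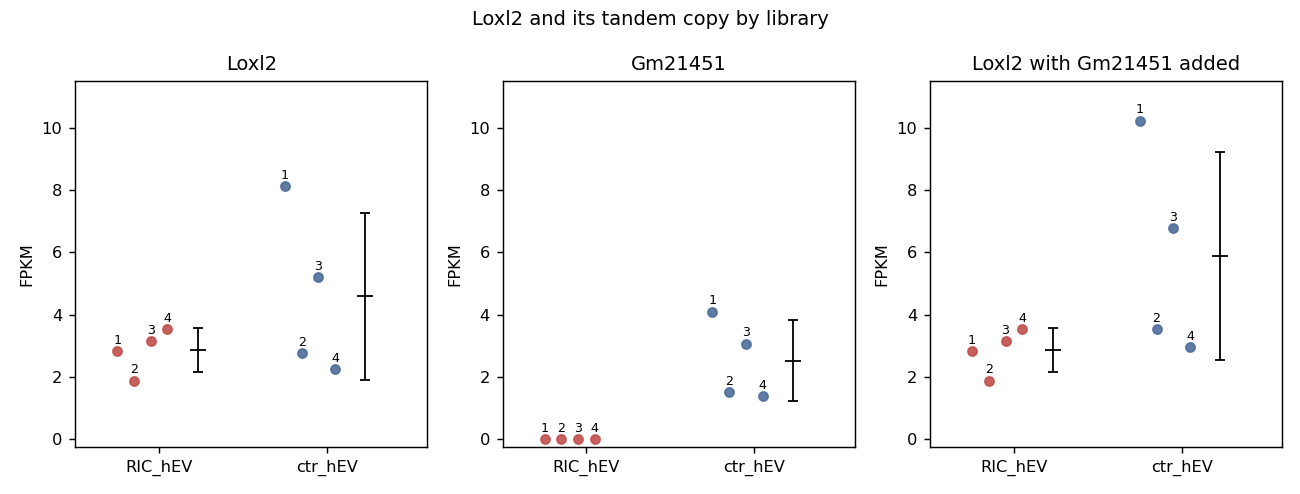
FPKM of Loxl2, of its tandem copy Gm21451 and of both added by exonic length (vertical axes) in the RIC_hEV and ctr_hEV libraries, with points numbered by library and bars giving the mean ± SD (n = 4) where values are above 0. Gm21451 is at 0 in all 4 RIC_hEV libraries and at 1.39 to 4.09 in ctr_hEV, and the sum still overlaps between the groups.

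Loxl3, an oxidase needed for palate and spine development in mice (chromosome 6, 83034173 to 83052562, on the plus strand), stood at 0.818, 0.666, 0.684 and 0.854 FPKM in RIC_hEV 1 to 4, against 1.59, 0.642, 1.05 and 0.673 FPKM in ctr_hEV 1 to 4. Again ctr_hEV 1 and ctr_hEV 3 were the highest libraries. The mean difference in log2(FPKM + 1) was -0.16 (two-sided exact permutation test, p = 0.457). Of its exonic bases, 11.6% overlap Htra2 on the opposite strand, and with no stated strand setting the reads of both genes cannot be told apart there.

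Loxl4 (chromosome 19, 42593982 to 42612813, minus strand) was at 0.406, 0.168, 0.450 and 0.604 FPKM in RIC_hEV 1 to 4, against 0.628, 0.447, 0.389 and 0.410 FPKM in ctr_hEV 1 to 4. It was the lysyl oxidase that did not show the raised values of ctr_hEV 3. These levels rest on an estimated 14.2 to 73.1 fragments per library. The mean difference in log2(FPKM + 1) was -0.07 (two-sided exact permutation test, p = 0.571, where the smallest possible p is 0.0286).

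Loxl2 as listed kept a similar share of the lysyl oxidases while their sum varied. Their summed FPKM was 5.74, 4.42, 6.78 and 7.97 in RIC_hEV 1 to 4, against 17.8, 5.63, 11.1 and 5.17 in ctr_hEV 1 to 4. Loxl2 made up 45.6 ± 2.93% of the sum in RIC_hEV and 46.3 ± 2.35% in ctr_hEV (SD, n = 4 each), and over all libraries its share stayed between 42.5% and 49.2%. With its copy added by length, a choice made after the values were seen, that share was 42.5% to 49.2% in RIC_hEV, where the copy is at 0, and 50.3% to 55.3% in ctr_hEV. Lox made up 13.1 ± 2.61% in RIC_hEV and 14.5 ± 3.86% in ctr_hEV. Relative to their size, though not in percentage points for all, the shares of the other lysyl oxidases varied more over the 8 libraries. They ran from 10.6% to 18.05% for Lox and from 18.8% to 25.5% for Loxl1. Loxl3 ran from 8.97% to 15.1% and Loxl4 from 3.49% to 7.95%. The share of Loxl4 was lowest in ctr_hEV 1 and ctr_hEV 3, at 3.53% and 3.49%, and in RIC_hEV 2, at 3.79%.

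Plod1, the lysyl hydroxylase mutated in human kyphoscoliotic Ehlers-Danlos syndrome (chromosome 4, 147909753 to 147936767, minus strand), was at 11.8, 9.0, 10.3 and 12.01 FPKM in RIC_hEV 1 to 4, against 11.03, 8.76, 9.11 and 9.59 FPKM in ctr_hEV 1 to 4. The values lay close together in both groups, with RIC_hEV 4 the highest. The mean was 10.8 ± 1.42 FPKM in RIC_hEV and 9.63 ± 0.998 FPKM in ctr_hEV. This gave a log2 fold change of 0.14 (SE 0.12, limma adjusted p = 0.533), the highest of the tested enzymes, and 0.25 relative to the median gene.

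Plod2, which hydroxylates the telopeptide lysines that form the most stable crosslinks (chromosome 9, 92542223 to 92608428, on the plus strand), stood at 0.541, 0.662, 1.20 and 1.07 FPKM in RIC_hEV 1 to 4, against 1.64, 0.991, 1.47 and 0.702 FPKM in ctr_hEV 1 to 4. Its highest libraries were ctr_hEV 1 and ctr_hEV 3, as in the lysyl oxidases Lox, Loxl1, Loxl2 and Loxl3. The log2 fold change was -0.23 (SE 0.17, limma adjusted p = 0.493), -0.12 relative to the median gene, and 0.01 without that pair. Plod2 made up 4.98 ± 1.79% of the summed lysyl hydroxylase FPKM in RIC_hEV and 7.08 ± 2.03% in ctr_hEV.

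Plod3, a lysyl hydroxylase that also has glycosyltransferase activity (chromosome 5, 136987019 to 136996648, on the plus strand), stood at 6.52, 5.38, 5.53 and 6.09 FPKM in RIC_hEV 1 to 4, against 7.04, 5.0, 5.96 and 5.78 FPKM in ctr_hEV 1 to 4. The control libraries spanned the whole RIC_hEV range. Its fitted log2 fold change was -0.01 (SE 0.11, limma adjusted p = 0.972), with a 95% interval from -0.26 to 0.24, and 0.10 relative to the median gene. Of its exonic bases 11.9% overlap other genes, mainly Znhit1 on the opposite strand.

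P4ha1, the main catalytic subunit of prolyl 4-hydroxylase (chromosome 10, 59323296 to 59373304, on the plus strand), stood at 7.28, 7.34, 8.41 and 8.09 FPKM in RIC_hEV 1 to 4, against 5.98, 8.49, 7.94 and 8.35 FPKM in ctr_hEV 1 to 4. Its lowest library was ctr_hEV 1, in which the lysyl oxidases were highest. The mean was 7.78 ± 0.560 FPKM in RIC_hEV and 7.69 ± 1.16 FPKM in ctr_hEV. The log2 fold change was 0.02 (SE 0.12, limma adjusted p = 0.933), with a 95% interval from -0.24 to 0.29, and 0.13 relative to the median gene. It was -0.10 without ctr_hEV 1 and ctr_hEV 3.

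P4ha2, the second catalytic subunit (chromosome 11, 54100095 to 54131665, on the plus strand), stood at 1.94, 0.923, 1.60 and 1.43 FPKM in RIC_hEV 1 to 4, against 1.06, 1.34, 1.24 and 1.48 FPKM in ctr_hEV 1 to 4. RIC_hEV 1 and RIC_hEV 2 held the highest and the lowest value. Its log2 fold change was 0.11 (SE 0.14, limma adjusted p = 0.693), and 0.22 relative to the median gene. P4ha2 made up 15.8 ± 4.06% of the summed prolyl 4-hydroxylase FPKM, counted with P4ha3, in RIC_hEV and 14.2 ± 0.871% in ctr_hEV.

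**Figure D3:**
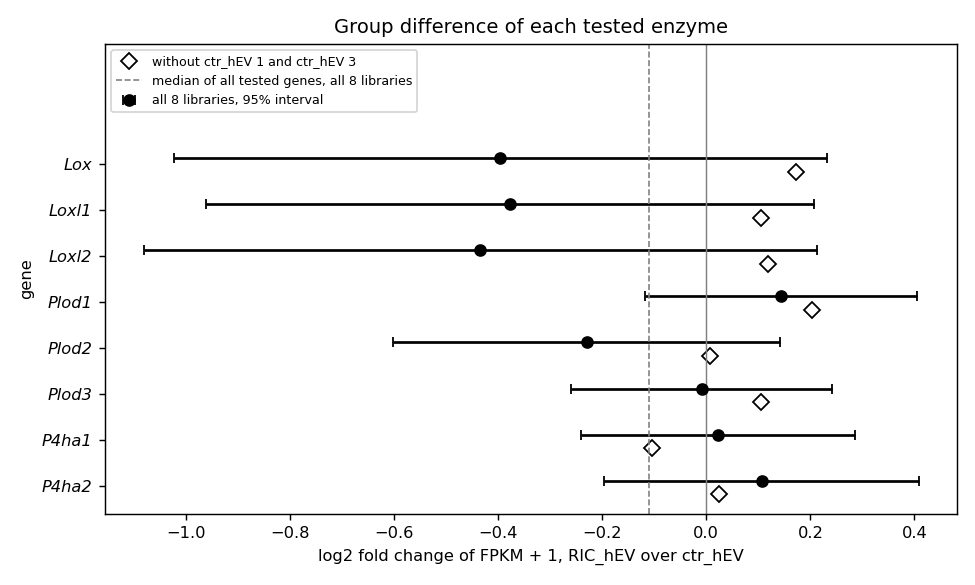
Log2 fold change of FPKM + 1, RIC_hEV over ctr_hEV (horizontal axis), for the 8 tested enzymes with all libraries (filled points, 95% interval) and without ctr_hEV 1 and ctr_hEV 3 (open diamonds). All intervals cross 0, and the diamonds of Lox, Loxl1 and Loxl2 lie at 0.17, 0.11 and 0.12 against -0.40, -0.38 and -0.43 with all libraries.

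The tested enzymes with narrow ranges were Plod1, Plod3, P4ha1 and P4ha2, whose highest library exceeded the lowest by 1.37, 1.41, 1.42 and 2.11 times. RefSeq promoters (GRCm38.p6, the 250 bases before the start) matched 5 of the 10 enzymes, and those of these 4 are shown because both prolyl hydroxylases are known targets of the hypoxia-inducible factors. Capitals mark the core letters of their binding site, ACGTG or GCGTG, on either strand, with overlapping matches counted separately.
P4ha1, chr10:59323046-59323295, plus strand: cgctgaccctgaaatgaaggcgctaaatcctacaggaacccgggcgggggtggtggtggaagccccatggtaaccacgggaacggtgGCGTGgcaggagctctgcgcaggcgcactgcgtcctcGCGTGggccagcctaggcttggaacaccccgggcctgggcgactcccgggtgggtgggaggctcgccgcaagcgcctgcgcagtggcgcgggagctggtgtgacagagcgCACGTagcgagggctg
P4ha2, chr11:54100674-54100923, plus strand: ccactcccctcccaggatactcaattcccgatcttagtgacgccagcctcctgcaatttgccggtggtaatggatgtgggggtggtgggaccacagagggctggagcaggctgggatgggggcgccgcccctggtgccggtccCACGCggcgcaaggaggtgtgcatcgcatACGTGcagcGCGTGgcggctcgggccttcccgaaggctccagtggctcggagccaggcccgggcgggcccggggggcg
Plod1, chr4:147936777-147937026, minus strand: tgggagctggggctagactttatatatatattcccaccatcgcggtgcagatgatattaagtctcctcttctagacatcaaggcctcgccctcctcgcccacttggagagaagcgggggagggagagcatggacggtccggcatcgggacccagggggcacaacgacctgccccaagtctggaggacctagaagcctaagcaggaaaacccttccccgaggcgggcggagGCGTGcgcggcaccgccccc
Plod3, chr5:136986769-136987018, plus strand: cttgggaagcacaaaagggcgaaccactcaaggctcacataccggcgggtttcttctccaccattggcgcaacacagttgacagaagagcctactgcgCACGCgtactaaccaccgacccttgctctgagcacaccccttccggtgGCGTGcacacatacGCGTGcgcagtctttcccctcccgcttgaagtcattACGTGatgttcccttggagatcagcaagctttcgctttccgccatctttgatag

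The P4ha2 window lies within the annotated span of the gene and overlaps none of its exons. These letters occurred 3 times in the P4ha1 window, 3 times in P4ha2, 1 time in Plod1, 4 times in Plod3 and 1 time in Loxl4. Of all 32851 RefSeq promoter windows of this length, 38.6% hold at least 1 match, and all 5 enzyme windows do. This is a description of 5 windows, with no test. The 5 windows hold 55.6% to 76.0% G or C, and the 38.6% was not matched for base content. Lox, Loxl1, Loxl2, Loxl3 and Plod2 are named only.

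In 5 of the 10 enzymes (Lox, Loxl1, Loxl2, Loxl3 and Plod2) ctr_hEV 1 and ctr_hEV 3 were the 2 highest libraries. The same held for 4 of the 8 tested enzymes and for 30% of all tested genes, so the trait is a common one in these libraries, and it is given as a description. The collagens were highest in the same 2 libraries. The summed FPKM of Col1a1, Col1a2 and Col3a1, the main fibrillar collagens, was 31.2, 25.8, 44.1 and 35.7 in RIC_hEV 1 to 4, against 124, 24.6, 63.1 and 23.6 in ctr_hEV 1 to 4. The highest collagen sum exceeded the lowest by 5.25 times, close to the 5.59 times of Lox.

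**Figure D4:**
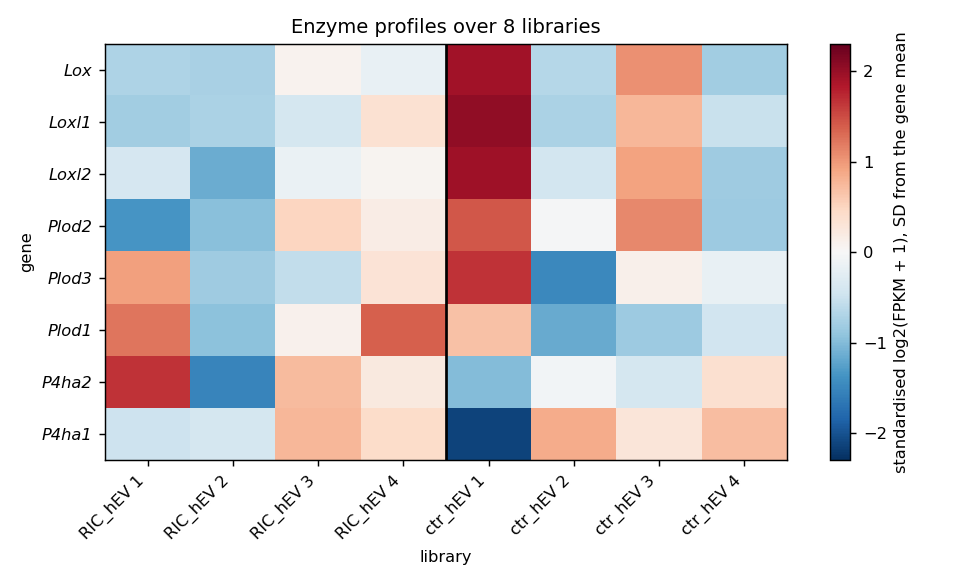
Standardised log2(FPKM + 1) of the 8 tested enzymes (rows) in the 4 RIC_hEV and 4 ctr_hEV libraries (columns), in SD from each gene's mean. Lox, Loxl1, Loxl2 and Plod2 are highest in ctr_hEV 1 and ctr_hEV 3, and P4ha1 is lowest in ctr_hEV 1.

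Relative to fibrillar collagen, Lox varied least of the 10 enzymes. The log2 ratio of Lox to the collagen sum lay between -5.46 and -5.10 in RIC_hEV and between -5.27 and -4.90 in ctr_hEV, a span of 0.55 over all 8 libraries. Loxl2 and Loxl1 spanned 0.81 and 0.86, Loxl3 1.26, Plod2 1.66 and Loxl4 1.92. Plod1 spanned 2.19, Plod3 2.11, P4ha2 2.83 and P4ha1 2.86. These wide spans came mostly from ctr_hEV 1 and ctr_hEV 3. Without ctr_hEV 1 that of P4ha1 was 1.48, and without both libraries it was 0.89, against 0.80 for Plod1, 0.96 for Plod3 and 0.79 for P4ha2. Lox still had the narrowest span of the 10 enzymes without both libraries, at 0.41, whereas Loxl1 stayed at 0.86 and Plod2, at 1.11, was the widest. The P4ha1 ratio lay between -2.38 and -1.80 in RIC_hEV and between -4.35 and -1.49 in ctr_hEV. Of the 13 ratios examined, 0 passed the test between groups (two-sided exact permutation tests, adjusted p of 0.867 to 0.971 over the 13 ratios, and 0 at an unadjusted p under 0.05). The smallest possible p of this exact permutation test is 0.0286. After adjustment over 13 ratios, no single ratio could therefore pass by itself. The ratio of Plod2 to Plod1 had the lowest unadjusted p, with a mean log2 ratio of -3.54 ± 0.513 in RIC_hEV and -2.96 ± 0.467 in ctr_hEV (SD, n = 4 each; exact permutation p = 0.20). P4ha2 over P4ha1 differed by 0.13 (exact permutation p = 0.629) and Loxl2 over Lox by 0.08 (exact permutation p = 0.629).

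**Figure D5:**
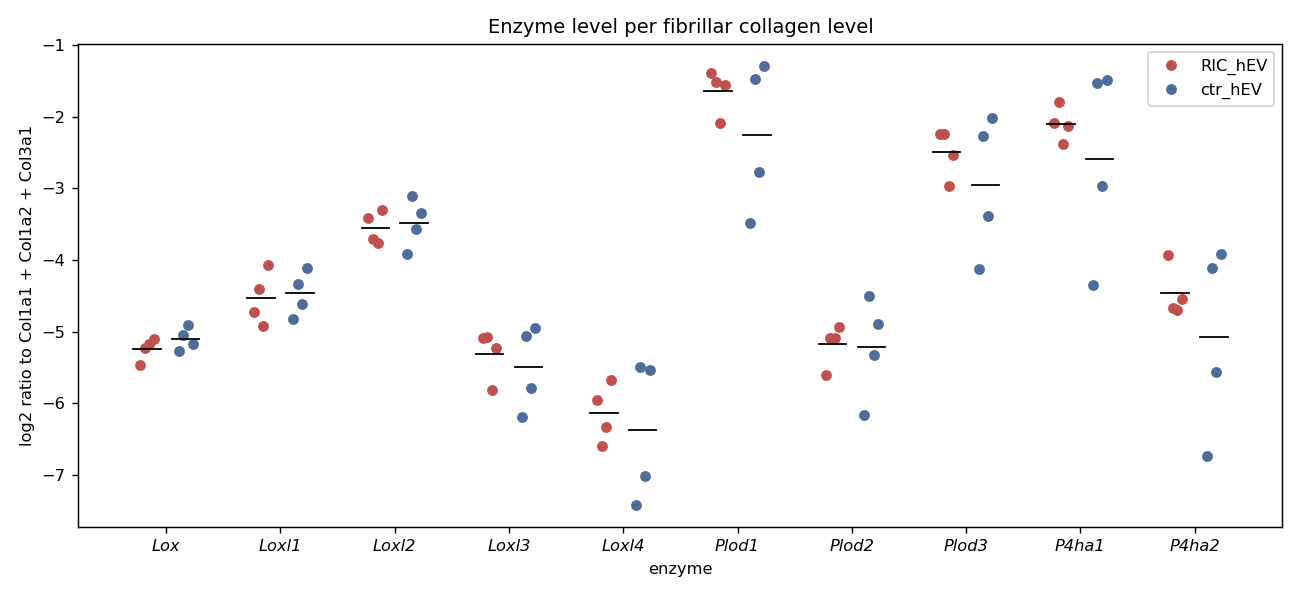
Log2 ratio of each enzyme's FPKM to the summed FPKM of Col1a1, Col1a2 and Col3a1 (vertical axis) in RIC_hEV and ctr_hEV libraries (points), with lines at the group means (n = 4 each). The points of Lox span 0.55 log2 units over both groups, whereas those of P4ha1 span 2.86, or 0.89 without ctr_hEV 1 and ctr_hEV 3.

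The genes with the most similar profiles differed by enzyme. Likeness was measured as the root-mean-square difference of log2(FPKM + 1) standardised over the 8 libraries, among the other 11273 tested genes. The gene nearest to Lox was Col5a2, a chain of collagen V, at 0.0908. It was at 1.73, 1.53, 2.44 and 2.48 FPKM in RIC_hEV 1 to 4, against 7.34, 1.68, 4.37 and 1.42 FPKM in ctr_hEV 1 to 4. Nearest to Loxl2 was Fstl1, a secreted glycoprotein of mesenchymal cells, at 0.0971, and nearest to Loxl1 was Pik3cd, a leukocyte phosphoinositide kinase, at 0.0798. The nearest gene to Plod2 was the chemokine Ccl6 (0.213), to Plod1 the interferon-inducible Oasl2 (0.165), to Plod3 the transcription factor Foxj2 (0.154), to P4ha1 the gene model Gm15502 (0.261) and to P4ha2 the diacylglycerol kinase Dgka (0.265). Among the enzymes themselves, Lox and Loxl2 were closest at 0.238, whereas P4ha1 and P4ha2 lay 1.03 apart.

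Summed markers of stellate cells, cholangiocytes, macrophages, portal fibroblasts and neutrophils were highest in ctr_hEV 1 and ctr_hEV 3. Those of hepatocytes, sinusoidal endothelium and mesothelium were not. The summed FPKM of 9 stellate cell and myofibroblast markers was 45.5 to 54.9 in RIC_hEV, against 85.2, 49.0, 73.8 and 45.8 in ctr_hEV 1 to 4. The sum of 5 cholangiocyte markers was 20.2 to 39.0 in RIC_hEV, against 146, 26.3, 107 and 27.6 in ctr_hEV 1 to 4. Spp1 made up most of that sum, at 16.9 to 36.0 in RIC_hEV, against 129, 22.5, 97.7 and 24.7 in ctr_hEV 1 to 4. The sum of 7 macrophage markers was 204 to 287 in RIC_hEV and 212 to 374 in ctr_hEV. Single macrophage markers differed, and ctr_hEV 1 and ctr_hEV 3 were the 2 highest libraries in 4 of the 7. Clec4f was at 54.0 and 47.4 FPKM in ctr_hEV 1 and ctr_hEV 3, against 64.7 and 57.4 in ctr_hEV 2 and ctr_hEV 4. Timd4 was at 2.23 and 1.91 FPKM, against 3.13 and 2.97, in the same libraries. The sum of 5 portal fibroblast markers was 5.53 to 7.45 in RIC_hEV and 6.04 to 10.6 in ctr_hEV. In these and the other marker lists 0 genes were called. At an unadjusted p under 0.05, all 4 tested neutrophil markers and 2 of 4 cholangiocyte markers were lower in RIC_hEV, against 11.3% of all tested genes. Of these markers, Ngp and Krt19 reached the level filter only through their ctr_hEV levels. Their means were 0.326 and 0.745 FPKM in RIC_hEV, against 2.40 and 2.13 FPKM in ctr_hEV. At that unadjusted p, 4 of 6 hepatocyte markers were higher in RIC_hEV. Of all tested genes 14% differed in either direction, most of them lower in RIC_hEV (11.3% of all tested genes). Leaving out ctr_hEV 1 and ctr_hEV 3 moved the median log2 fold change of hepatocyte markers from 0.26 to 0.14. That of neutrophil markers moved from -1.22 to -0.68 and that of cholangiocyte markers from -0.83 to -0.01. The 6 hepatocyte markers summed to 31948 to 37722 FPKM in RIC_hEV and 25665 to 40291 in ctr_hEV, with Alb at 19618 to 24977 in RIC_hEV and 16909 to 28051 in ctr_hEV, as liver tissue has. The 6 sinusoidal endothelial markers summed to 71.3 to 98.4 FPKM in RIC_hEV and 72.1 to 86.2 in ctr_hEV. Mesothelial markers stayed at 0.700 to 1.12 FPKM in RIC_hEV and 0.709 to 1.505 in ctr_hEV, and the 5 neutrophil markers summed to 6.90 to 15.5 in RIC_hEV, against 31.8, 30.6, 69.7 and 13.1 in ctr_hEV 1 to 4. In bulk tissue, fewer cells of a type and less RNA per cell cannot be told apart, and the part of these cell types in the enzyme levels was not tested.

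The collagens on which the enzymes act were not called either. Of 17 substrate genes, 14 were tested, and 0 were called higher and 0 lower. Their median log2 fold change was -0.30 against -0.11 for all tested genes, and 0.21 against -0.03 without ctr_hEV 1 and ctr_hEV 3, the 2 highest libraries in 13 of the 14. Col1a1, the first chain of collagen I, was at 7.90, 5.99, 11.7 and 8.68 FPKM in RIC_hEV 1 to 4, against 32.7, 4.97, 14.9 and 5.85 FPKM in ctr_hEV 1 to 4 (log2 fold change -0.38, limma adjusted p = 0.679). Col15a1, a basement membrane collagen, had a log2 fold change of -0.72 (limma adjusted p = 0.367). It stood at 0.406 to 0.621 FPKM in RIC_hEV, against 4.40, 0.523, 2.01 and 0.509 FPKM in ctr_hEV 1 to 4. Col15a1 reached the level filter only through its ctr_hEV levels. Col4a1, a chain of the basement membrane collagen IV, had -0.29 (limma adjusted p = 0.493).

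Other enzymes and chaperones of collagen folding had 0 of 14 tested members called higher and 0 called lower, of 17 listed. Their median log2 fold change was -0.08 against -0.11 for all tested genes, and 0.11 against -0.03 without ctr_hEV 1 and ctr_hEV 3. Tmem38b, a cation channel of the endoplasmic reticulum, was at 15.3, 15.04, 14.4 and 15.8 FPKM in RIC_hEV 1 to 4, against 16.2, 18.7, 17.8 and 17.2 FPKM in ctr_hEV 1 to 4. Its groups did not overlap, and its log2 fold change of -0.19 was not called (limma adjusted p = 0.365). Fkbp9, a prolyl isomerase of the endoplasmic reticulum, averaged 12.1 ± 0.214 FPKM in RIC_hEV and 14.97 ± 3.85 FPKM in ctr_hEV (limma adjusted p = 0.426).

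Procollagen processing and fibril assembly gave the same count. Of 5 tested processing genes 0 were called, and of 9 tested assembly genes 0 were called, with medians of -0.17 and -0.17. The medians were -0.08 and 0.10 without ctr_hEV 1 and ctr_hEV 3. Tgm2, a transglutaminase that joins proteins by a bond other than that of the lysyl oxidases, averaged 49.0 ± 4.79 FPKM in RIC_hEV and 68.8 ± 15.8 FPKM in ctr_hEV (log2 fold change -0.46, limma adjusted p = 0.353). Adamts14, a procollagen N-proteinase, averaged 0.942 ± 0.321 FPKM in RIC_hEV and 1.83 ± 1.19 FPKM in ctr_hEV (limma adjusted p = 0.392). The fibril-binding proteoglycans Lum and Fmod had log2 fold changes of -0.47 and -0.24 (limma adjusted p = 0.437 and 0.392). Adamts14 and Fmod reached the level filter only through their ctr_hEV levels.

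Genes that supply the cofactors of these enzymes had 0 of 8 called, with a median of -0.03, and of -0.18 without ctr_hEV 1 and ctr_hEV 3. Atp7a, the copper pump that loads lysyl oxidases, was at 0.631, 0.811, 0.846 and 1.18 FPKM in RIC_hEV 1 to 4, against 1.59, 1.22, 1.56 and 0.985 FPKM in ctr_hEV 1 to 4. The groups overlapped only through RIC_hEV 4 and ctr_hEV 4, with a log2 fold change of -0.33 (limma adjusted p = 0.354). Atp7a reached the level filter only through its ctr_hEV levels. Atp7b, which exports copper into bile, had -0.27 (limma adjusted p = 0.367).

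Hypoxia response genes had 0 of 19 tested members called and a median of -0.13, or -0.05 without ctr_hEV 1 and ctr_hEV 3. Egln3, a prolyl hydroxylase that marks hypoxia-inducible factors and shares the cofactors of the collagen hydroxylases, was at 6.04, 6.36, 6.02 and 5.44 FPKM in RIC_hEV 1 to 4, against 11.8, 8.13, 10.8 and 6.70 FPKM in ctr_hEV 1 to 4. All RIC_hEV libraries lay below every ctr_hEV library, with a log2 fold change of -0.55 that was not called (limma adjusted p = 0.332) and -0.27 without ctr_hEV 1 and ctr_hEV 3. Ero1l, an oxidase of the endoplasmic reticulum, was at 4.04 to 5.04 FPKM in RIC_hEV and at 5.09 to 6.25 FPKM in ctr_hEV (log2 fold change -0.30, limma adjusted p = 0.353).

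Of the TGF-beta pathway, the main known inducer of matrix enzymes, 13 of 17 genes were tested and 0 were called, with a median of -0.31. At an unadjusted limma p under 0.05, 5 of the 13 were lower, against 11.3% of all tested genes. Without ctr_hEV 1 and ctr_hEV 3 that median was -0.01, against -0.03 for all tested genes. The receptor gene Tgfbr1 averaged 6.66 ± 0.786 FPKM in RIC_hEV and 9.83 ± 2.70 FPKM in ctr_hEV (SD, n = 4 each), with a log2 fold change of -0.47 that was not called (limma adjusted p = 0.353).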

How the data were processed

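Liver RNA of 8 libraries was extracted with Trizol, as the labels' protocols state. Tools named in the submitters' processing notes are Trimmomatic 0.38, HISAT2 2.2.1, HTSeq 0.13.5 with the build mm10. The values deposited by the authors are FPKM, 1 column per library. How FPKM were computed, with which annotation, transcript lengths and strandedness, is not stated in the sources used.

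Of 55335 rows, 3225 had no gene name and were left out (0.176% to 0.207% of FPKM per library). For 80 symbols with several rows, the symbol stayed with the row of the highest mean and the others were tested unnamed. Groups and replicate numbers came from the titles. Tests used log2(FPKM + 1), genes with a mean of at least 1 FPKM, and limma 3.58.1 in R 4.3.3 with a mean-variance trend, two-sided. A fold change on this scale understates that of low genes. Enzymes below the filter and the ratios, with 0.1 added to both terms, were compared by exact permutation over 70 assignments of libraries. Depth was estimated from the most common FPKM times exonic length (GENCODE M21) of low genes. It is an estimate, and no count model was used. Shared sequence was found by exact matching of GENCODE M21 transcripts.

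The enzymes and the 7 other gene lists were chosen with earlier results of these data known. Genes named beside the enzymes are the 2 with the lowest p of each list, Col1a1, and the nearest gene in profile to each tested enzyme. One gene that this rule names is not reported here. Alternatives were other pseudocounts, filters and scalings, a replicate block, library weights and leaving out libraries.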

Additional observations from a re-analysis of the deposited data

How the results depend on the processing

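Among 141 values of the 8 tested enzymes, each for 1 enzyme under 1 alternative, 0 gave a call. The lowest limma adjusted p was 0.135, for Loxl2 with library weights. The alternatives reuse the same libraries, so the 141 values are not separate checks. No enzyme was called and none had separate groups under any alternative, except Loxl2 with its copy as a plain sum, whose groups separated; that sum was chosen after seeing the data. Plod3 turned to 0.13 with median centring and 0.11 with quantile normalization, and P4ha1 to -0.030 on a TPM scale and -0.0015 with library weights. Without ctr_hEV 1 and ctr_hEV 3 together, Loxl1, Loxl2 and Plod3 were at 0.11, 0.12 and 0.11 and P4ha1 at -0.10; these control libraries were picked with their levels known. Lox then fell under the filter, as it did without ctr_hEV 1, and Plod2 without either. With single libraries left out, P4ha1 ran from -0.079 to 0.069, Plod3 from -0.076 to 0.064 and Loxl4 from -0.13 to 0.018. The cause of these turns was not tested.

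No ratio was called under any alternative. These alternatives could hardly give a call, because it needed many ratios at the smallest possible p at once. Without ctr_hEV 1 and ctr_hEV 3 together, too few assignments of libraries remained for any exact permutation p under 0.05. With 1 added to both terms, the ratios of Lox, Loxl1 and Loxl2 to collagen were at 0.060, 0.079 and 0.022 and Loxl2 over Lox at -0.039. With Col1a1 alone as substrate, Plod2 was at -0.030. Without ctr_hEV 1 and ctr_hEV 3 together, the ratios to collagen were -0.30 for Loxl3, -0.62 for Loxl4, -0.25 for Plod1, -0.48 for Plod2, -0.35 for Plod3, -0.59 for P4ha1 and -0.45 for P4ha2, and Loxl2 over Lox was -0.20. With single libraries left out, ratios to collagen ran from -0.22 to 0.065 for Loxl1, -0.21 to 0.062 for Loxl2, -0.043 to 0.38 for Loxl3, -0.12 to 0.52 for Loxl4, -0.27 to 0.28 for Plod2 and -0.10 to 0.85 for P4ha1. P4ha2 over P4ha1 ran from -0.039 to 0.30 and Loxl2 over Lox from -0.042 to 0.19.

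Over all genes, 4 were called (2 higher, 2 lower), 2 without a filter (0 higher) and 15 with library weights (6 higher, 9 lower). With single libraries left out the count ran from 1 to 175 (0 to 41 higher, 0 to 134 lower), the highest without ctr_hEV 4. With the replicate number as a block 3 were called (1 higher) and 0 enzymes. The numbers do not pair the libraries: same-numbered libraries correlated at 0.05, 0.12, -0.01 and -0.23. RIC_hEV 1, 2, 3 and 4 correlated best with ctr_hEV 4, 4, 2 and 3, none with its own number. Depth limits Loxl4 most.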

Other observations

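The annotated genes just before Gm21451 and Loxl2 on chromosome 14 were examined after the values of Gm21451 were seen. Entpd4, before Gm21451, was at 3.43, 2.73, 2.93 and 3.18 FPKM in RIC_hEV 1 to 4, against 3.03, 3.09, 3.52 and 2.87 FPKM in ctr_hEV 1 to 4. Entpd4b, before Loxl2, was at 4.07, 3.20, 3.49 and 3.70 FPKM in RIC_hEV 1 to 4, against 3.74, 3.56, 4.05 and 3.27 FPKM in ctr_hEV 1 to 4. Both overlapped between the groups, and neither was at 0 in any library. Sequence shared between Entpd4 and Entpd4b was not examined, so how far the 0 values in RIC_hEV reach was not tested.

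Being listed at 0 in one whole group was rare at this level. Only 2 gene rows were at 0 in all 4 RIC_hEV libraries and above 1 FPKM in all 4 ctr_hEV libraries, and Gm21451 is 1 of them. The opposite held for 0 rows. At a level above 0.1 FPKM the numbers were 5 and 4.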
